A study of Mus musculus with 18 samples.

Results

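Soleus muscles of mice that had spent 30 days in orbit were compared with soleus muscles of mice that had spent 30 days on the ground in the same kind of habitat, over 12393 genes. The comparison holds 6 of the 18 arrays of the series, the 3 titled BF SOL (Bion Flown) and the 3 titled BG SOL (Bion Ground), and the measure is the log2 difference of the group means, BF minus BG. The BF mice flew aboard the Bion-M1 biosatellite. The BG mice lived in a replicate of the flight habitat under normal gravity. Soleus of FC (Flight Control) mice, which were housed in a standard animal facility, was measured on 3 further arrays, and the remaining 9 arrays hold the extensor digitorum longus (EDL), a fast muscle that lifts the toes, of the same 3 groups. All mice were males of the strain given as C57/BL6 in the sample labels and as C57BL/N6 in the design text, with no genetic modification named. Per the study's methods, BF and BG mice ate a paste diet and FC mice standard chow, and BF mice were dissected some hours after landing, following a transport in their housing unit. Transport and landing go with the BF group and cannot be told apart from the flight itself.

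Soleus is a postural calf muscle that works against gravity most of the day, and it is built largely of slow and of fast oxidative fibres. Slow fibres carry their own set of myosin, troponin and calcium pump proteins, burn fatty acids in abundant mitochondria and resist fatigue, while fast glycolytic fibres carry another set and draw on glycogen. When a postural muscle is unloaded, for example by bed rest or by suspension of the hind limbs, it loses mass and its fibres are known to turn towards the fast type.

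Each value is the signal of a probe set, a group of short probes on the array, on a log2 scale, so that a difference of 1 stands for a 2-fold change. The deposited signals ran from 2.11 to 14.5, and the medians of the soleus arrays from 6.181 to 6.255. The interquartile range was narrower in BF soleus, at 3.249, 3.3 and 3.184, than in BG soleus, at 3.464, 3.492 and 3.488, and its part in the results was not tested. The 3 BF arrays lay farther apart from one another (Euclidean distances of 47.8 to 72.6 over all probe sets) than the 3 BG arrays (35.2 to 41.91), and all 9 distances between the groups were in the range of 68.49 to 88.77. BF replicate 2 stood farthest out, with a quality weight of 0.303 against 1.93 and 0.529 for BF replicates 1 and 3, and list counts that moved by over 1.5 times without it are given both ways. The difference between 3' and 5' control probes, a measure of RNA breakdown, averaged 0.19 in BF and 0.07 in BG for Gapdh, 0.10 in BF and -0.02 in BG for Actb, and 2.11 in BF and 1.70 in BG for pyruvate carboxylase. Its part in the results was not tested. The muscle label was borne out by its defining genes: in the BG mice, the slow myosin gene Myh7 was higher in soleus than in EDL by 4.92 (adjusted p = 0.0018) and the fast myosin gene Myh4 was lower (-4.56).

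Of the 12393 genes, 288 were called up and 287 called down in BF soleus, that is, some probe set of the gene differed over 2-fold at an adjusted p under 0.05 (limma, Benjamini-Hochberg adjustment across the whole array). Either share is 2.32% of the genes, and together they are 4.64%. At any fold and with 1 probe set for each gene, 1370 genes rose (11.1%) and 1523 fell (12.3%), and these shares are the background for the gene lists that follow. After each array was centred on its own median the counts were 1036 and 1815. The 3 BF arrays lay above the 3 BG arrays in 21.1% of all genes and below them in 19.0%. The changes reached further upward than downward, from -3.09 to 4.43, counted on the probe set with the highest mean signal. By that probe set 243 genes were over 2-fold up (1.96%) and 191 over 2-fold down (1.54%), with 42 more than 4-fold higher and 15 more than 4-fold lower in BF. Among these, 7 were more than 8-fold higher and 1 more than 8-fold lower. The BF arrays also spread more where genes were called up, with a median SD of 0.65 in BF and 0.21 in BG, than where genes were called down (0.26 in BF and 0.17 in BG).

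**Figure D1:**
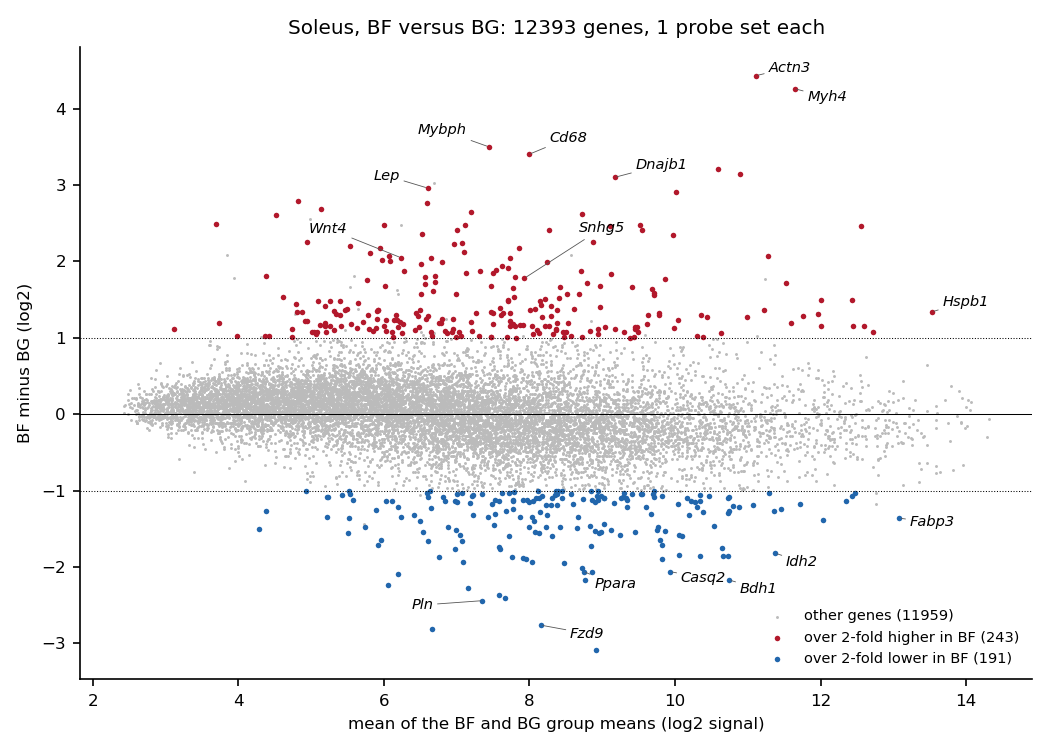
Log2 difference between BF and BG soleus (vertical axis) against the mean log2 signal over the 6 arrays (horizontal axis), 1 point for each of 12393 genes. The 243 genes in red and 191 in blue passed an adjusted p of 0.05 and 2-fold by the plotted probe set, and the labelled genes reach from Actn3 at 4.43 to Fzd9 at -2.76.

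Few of the dimmest genes were called. The signal of a gene was taken here as the higher of its BF and BG means. The share called rose with this signal, from 0.0794% of genes under 4 to 8.77% of those at 12 or more. The centre of all genes moved with the signal too, with a median difference of 0.15 between 4 and 6 and of -0.20 between 10 and 12, while the median over all genes was 0.03. Where a gene had a second probe set, the second usually moved in the same direction. In 276 of the 297 pairs in which the first was called the second had the same sign, 193 passed the test the same way and 0 were called the other way. The 243 genes in red share a pattern within the group: BF replicate 2 was the highest of the BF arrays in 164 of them and BF replicate 3 the lowest in 159, while over all genes these counts were 3956 and 3742 of 12393.

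**Figure D2:**
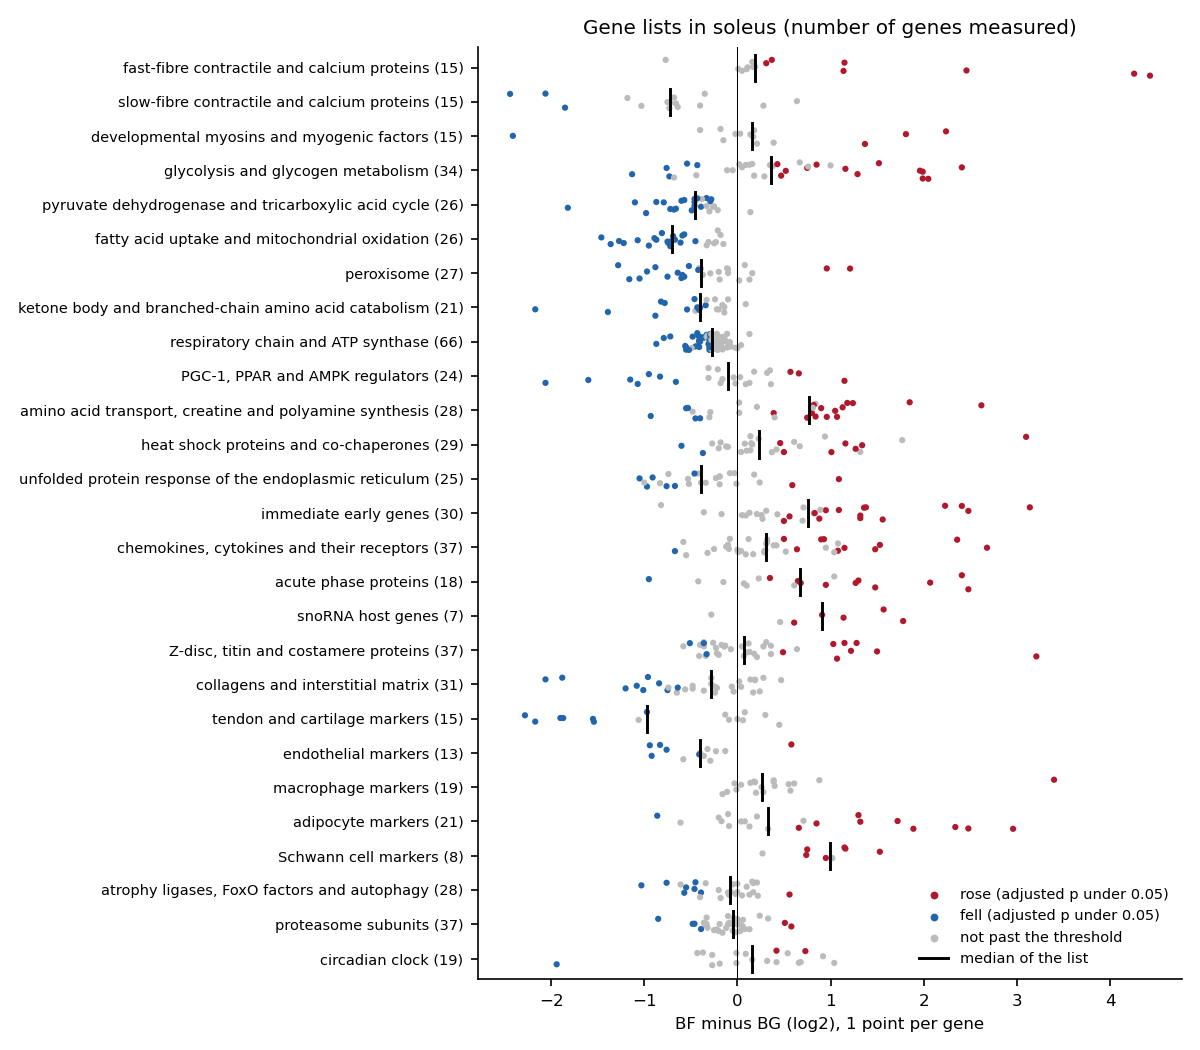
Log2 difference between BF and BG soleus (horizontal axis) of every measured member of 27 gene lists (rows), 1 point for each gene, with a bar at the median of each list. Lists of oxidative metabolism lie left of 0, with medians of -0.70 for fatty acid oxidation and -0.27 for the respiratory chain, and immediate early genes lie right of it with a median of 0.76.

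Genes of fast glycolytic fibres held the 2 largest rises. Actn3, which encodes the Z-disc alpha-actinin found only in fast fibres, was at 13.68, 12.75 and 13.55 in BF, against 8.07, 10.54 and 8.07 in BG. The fast myosin Myh4, the heavy chain of type IIB fibres, was at 13.96, 13.41 and 13.95 in BF, against 7.68, 12.15 and 8.71 in BG. In both genes the 3 BF arrays were high and close together, BG replicate 2 was the highest of a scattered BG group, and the groups did not overlap. The differences were 4.43 ± 0.50 for Actn3 (SE, adjusted p = 2.9e-05 from limma, 21.6-fold) and 4.26 ± 0.79 for Myh4 (adjusted p = 0.0014, 19.2-fold), the 2 highest among called genes without overlap. Pvalb, the parvalbumin that buffers calcium in fast fibres, was at 14.03, 13.28 and 14.04 in BF and at 10.71, 12.18 and 11.10 in BG, a rise of 2.46 ± 0.29 (adjusted p = 4e-05). Myoz1, a Z-disc protein of fast fibres that binds calcineurin, rose by 1.15 ± 0.14 (adjusted p = 6.8e-05).

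Of 15 fast-fibre contractile and calcium genes 7 rose and 0 fell (1 was lower at an unadjusted p under 0.05 and 0 fell with unmoderated contrasts), with a median difference of 0.19. The other 3 that rose were Mylk2, Mylpf and Atp2a1, at 1.14, 0.37 and 0.31. The count was 4 without BF replicate 1, where Mylk2 (adjusted p = 0.081), Mylpf (0.06) and Atp2a1 (0.079) missed the threshold. Several fast genes were already near the top of the scale in BG. Tnnt3, the fast troponin T, was at 13.58, 13.48 and 13.76 in BF and at 13.56, 13.62 and 13.60 in BG, and its difference of 0.01 did not pass the test. Myh1, the IIX heavy chain, differed by 0.11 (adjusted p = 0.61) at its brightest probe set, while a dimmer one, at means of 7.12 in BF and 6.25 in BG, differed by 0.87 (adjusted p = 0.011). Myh2, the heavy chain of fast oxidative IIA fibres, was below every BG array in all 3 BF arrays, at 13.07, 13.17 and 13.37 in BF, against 14.05, 13.96 and 13.89 in BG, and missed the threshold over 18 arrays (-0.77 ± 0.31, adjusted p = 0.088). It passed with the 9 soleus arrays (0.002), the 6 BF and BG arrays (0.0095), quality weights (0.047) and the replicate number as a block (0.044), and under each of these 4 settings 1 gene of the list fell.

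Genes of slow fibres were lower in BF. Pln encodes phospholamban, the brake on the slow calcium pump. It was at 5.97, 6.25 and 6.15 in BF and at 8.45, 8.61 and 8.65 in BG, with both groups tight and far apart, and it fell by 2.44 ± 0.18 (adjusted p = 4.5e-07, 5.44-fold). Casq2, the calsequestrin of slow and cardiac muscle, was at 8.67, 9.39 and 8.66 in BF, against 10.99, 10.81 and 11.09 in BG. It fell by 2.06 ± 0.18 (adjusted p = 2.3e-06). Sln, sarcolipin, a second small regulator of calcium pumps, fell by 1.85 ± 0.41 (adjusted p = 0.0045), again without overlap.

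For the contractile genes of slow fibres the call turned on which arrays set the spread. Of 15 slow-fibre genes 0 rose and 3 fell in the 18-array fit (0 were higher at an unadjusted p under 0.05, and unmoderated contrasts also gave 0 and 3). In 11 of the 15 the 3 BF arrays lay below the 3 BG arrays, as they did in 19.0% of all genes. When the fit held only the 9 soleus arrays or only the 6 of BF and BG, 11 fell. Myh7, the slow myosin heavy chain, was at 12.85, 13.31 and 12.92 in BF and at 13.78, 13.74 and 13.72 in BG. Its difference of -0.72 had an SE of 0.95 over 18 arrays (adjusted p = 0.62) and of 0.13 over the 9 soleus arrays (adjusted p = 0.0046). The SD of this gene was 2.14 in BF EDL and 1.37 in BG EDL, and the 18-array fit gives both muscles 1 shared spread. The slow troponins Tnni1 and Tnnt1 were at -1.03 and -0.64, with adjusted p of 0.29 and 0.56 over 18 arrays and 0.005 and 0.01 over 9. Csrp3, the muscle LIM protein, was the member that rose in the smaller fits (0.64, adjusted p = 0.016 over 9 arrays and 0.58 over 18).

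The size of the difference also varied between probe sets of 1 gene. Atp2a2, the calcium pump of slow fibres, was read by 4 probe sets, and the brighter the probe set, the smaller was its difference. It was -1.54 (adjusted p = 4.4e-05) at means of 7.20 in BF and 8.74 in BG, -1.46 at 10.58 and 12.04, -1.07 at 12.30 in BF and 13.37 in BG, and -0.75 (adjusted p = 0.33) at 13.26 in BF and 14.01 in BG, near the highest signal of 14.5.

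**Figure D3:**
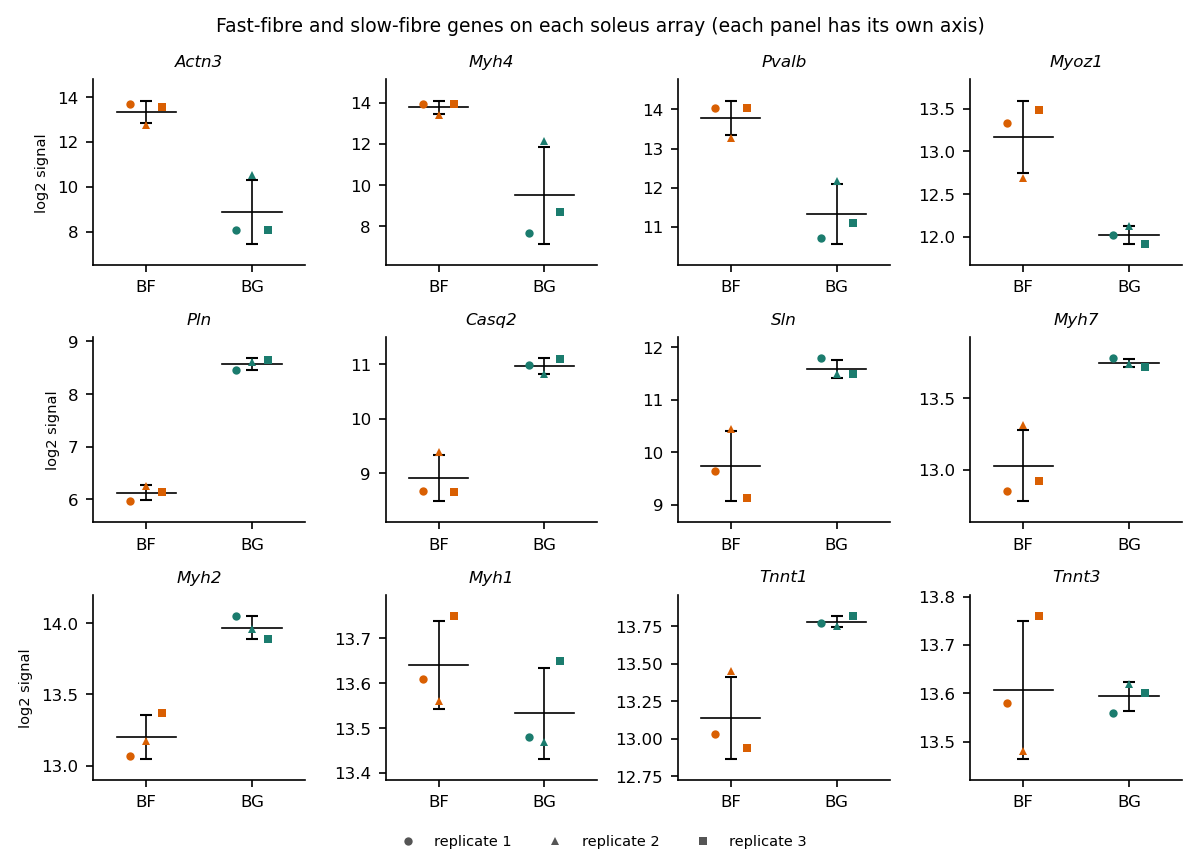
Log2 signal (vertical axis) of 12 fibre-type genes in BF soleus (left) and BG soleus (right) of each panel, 1 marker for each array (circle, triangle and square are replicates 1, 2 and 3), with the mean and SD. Actn3, Myh4 and Pvalb lie higher in all 3 BF arrays and Pln, Casq2, Sln, Myh7 and Myh2 lie lower, while Tnnt3 is level.

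The genes that handle calcium and ions at the fibre membrane moved in both directions. Kcnma1, the large-conductance calcium-activated potassium channel, was at 6.97, 7.20 and 7.04 in BF and at 9.0, 9.07 and 8.95 in BG, and fell by 1.94 ± 0.18 (adjusted p = 3.8e-06). Another probe set of Kcnma1 showed a smaller fall, at -0.84 (adjusted p = 0.0019 from limma). The beta subunits of the sodium pump changed in opposite directions, with Atp1b2 higher by 1.88 ± 0.34 (adjusted p = 0.0012) and Atp1b1 lower, at -1.03 ± 0.24 (adjusted p = 0.0067). Of 14 genes of the sodium pump and ion channels 3 rose and 3 fell, and 5 rose without BF replicate 2. Cacng1, the gamma subunit of the muscle calcium channel, rose by 1.07 (adjusted p = 0.0018), and Prkca, protein kinase C alpha, by 1.01 (adjusted p = 0.00013). Of the 27 genes of excitation-contraction coupling and calcium signalling 3 rose and 3 fell, which are 11.1% each, and 6 rose without BF replicate 2.

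Genes of glucose and glycogen metabolism moved in both directions, with more of them higher than lower in BF. Of 34 genes of glycolysis and glycogen metabolism 13 rose and 5 fell, with a median difference of 0.36. Slc16a3, the lactate exporter MCT4 of fast fibres, was at 9.34, 6.40 and 8.88 in BF, against 6.10, 5.70 and 5.57 in BG. BF replicate 2 was the lowest of the BF arrays but stayed above BG, and the gene rose by 2.41 ± 0.47 (adjusted p = 0.0018). Slc2a3, a glucose transporter, was at 7.45, 6.96 and 8.05 in BF and at 5.15, 5.90 and 5.52 in BG, a rise of 1.96 ± 0.24 (adjusted p = 4.7e-05). Fbp2, the muscle fructose bisphosphatase, rose by 2.05, Gpd1, which passes electrons of glycolysis to the glycerol phosphate shuttle, by 1.99, and Adpgk, a glucokinase that uses ADP, by 1.99. The 5 that fell, named here after their values were seen, were Ldhb (-1.13), the lactate dehydrogenase subunit of oxidative tissue, Gbe1 (-0.76), the glycogen branching enzyme, Pfkl (-0.73), the liver form of phosphofructokinase, Slc2a4 (-0.54), the insulin-regulated transporter GLUT4, and Ugp2 (-0.43). BF replicate 2 was the lowest BF array in 12 of the 13 genes that rose, as it was in all 7 of the fast-fibre genes that rose. Over all genes it was the lowest BF array in 5506 of 12393. Without BF replicate 1 there were 8 that rose, without BF replicate 2 there were 19, and without BG replicate 3 there were 3 that fell.

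Genes of fuel oxidation were lower in BF, from the uptake and oxidation of fatty acids and the use of ketone bodies to the tricarboxylic acid cycle, and 0 genes rose in the 3 lists that cover them (0 were higher at an unadjusted p under 0.05 and 0 rose with unmoderated contrasts). Of 26 genes of fatty acid uptake and mitochondrial oxidation 19 fell, with a median of -0.70, and of 26 genes of pyruvate dehydrogenase and the tricarboxylic acid cycle 19 fell, with a median of -0.46. Each count is 73.1% of its list, where 12.3% of all genes fell. The 3 BF arrays lay below the 3 BG arrays in 20 of the fatty acid genes and in 22 of the cycle genes. Over all genes this held for 19.0%. Fabp3, the fatty acid carrier of heart and slow muscle, was at 12.22, 12.32 and 12.66 in BF and at 13.68, 13.98 and 13.61 in BG. It fell by 1.36 ± 0.16 (adjusted p = 3.2e-05). Acaa2, the thiolase of the last step of beta-oxidation, was at 9.70, 9.60 and 10.10 in BF, against 11.00, 11.66 and 11.11 in BG, and fell by 1.46 ± 0.17 (adjusted p = 4.4e-05). In both genes every BF array was lower than every BG array. With the 6 BF and BG arrays alone 12 of the cycle genes fell, and with the arrays quantile normalized again 11.

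Both subunits of the trifunctional protein fell, Hadha by 1.27 and Hadhb by 1.07, as did Cpt2, the inner carnitine palmitoyltransferase, which fell by 1.22, and Lpl, which frees fatty acids from lipoproteins and fell by 0.89. In the cycle, Suclg2 fell by 1.10 (adjusted p = 0.00013), Ogdh by 0.98, Sdhc by 0.87 and Mdh1 by 0.79. Of 21 genes of ketone body and branched-chain amino acid catabolism 11 fell, led by the ketone enzymes. Bdh1, which oxidises hydroxybutyrate, was at 9.26, 10.15 and 9.57 in BF and at 11.98, 11.76 and 11.75 in BG, a fall of 2.17 ± 0.45 (adjusted p = 0.0028). Oxct1, which activates acetoacetate, fell by 1.39 ± 0.15 (adjusted p = 2.2e-05). With the arrays quantile normalized again, 5 of the 21 fell.

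In the respiratory chain the falls were smaller and shared by many subunits. Of 66 genes 28 fell and 0 rose (0 higher at an unadjusted p under 0.05, 30 fell and 0 rose with unmoderated contrasts), with a median of -0.27. The 3 BF arrays lay below the 3 BG arrays in 47 of the 66, and in 19.0% of all genes. The genes of this list are bright, with a mean over the list of 12.26, 12.17 and 12.37 in BF and 12.52, 12.57 and 12.57 in BG. Over all genes with a BF or BG mean of 12 or more the median difference was -0.17. The part of that general shift in these counts was not tested. Ndufb10, a subunit of complex I, fell by 0.87 (adjusted p = 5.4e-05) and Cox7a1, the muscle form of a cytochrome oxidase subunit, by 0.79 (adjusted p = 0.0012). The brightest members, Uqcrb and Cox5b, each differed by -0.11 at their brightest probe set, near the highest signal of 14.5, and did not pass. A dimmer probe set of Uqcrb differed by -0.48 (adjusted p = 0.027 from limma). Dimmer probe sets of Cox5b differed by -0.51 (adjusted p = 0.00087) and -0.34 (adjusted p = 0.0093). A very dim one of Cox5b, at means of 4.11 in BF and 3.70 in BG, differed by 0.42 (adjusted p = 0.048). The count of those that fell depended on single arrays: it was 17 without BF replicate 2, 15 without BG replicate 2, 16 without BG replicate 3, 12 with the 6 BF and BG arrays alone and 14 with the arrays quantile normalized again. BF replicate 2 was the lowest BF array in 24 of the 28, and in 5506 of 12393 over all genes.

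The peroxisome list moved in the same direction, with 12 of 27 lower and 2 higher and a median of -0.39. Amacr, which prepares branched fatty acids for oxidation, fell by 1.28 (adjusted p = 0.00013), Ephx2, an epoxide hydrolase, by 1.16 and Cat, catalase, by 0.97. The 2 that rose were Abcd2, a transporter of very long chain fatty acids, at 1.21 ± 0.19 (adjusted p = 0.00044), and Acaa1b, a peroxisomal thiolase, at 0.96.

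Regulators of oxidative metabolism were among the genes that fell. Ppara, the nuclear receptor that switches on fatty acid oxidation, was at 7.77, 7.63 and 7.73 in BF and at 10.35, 8.96 and 10.01 in BG, and fell by 2.06 ± 0.27 (adjusted p = 0.00011). The coactivator Ppargc1a (PGC-1 alpha) was at 9.40, 9.68 and 8.82 in BF, against 11.85, 9.83 and 11.03 in BG. BG replicate 2 was low in both genes, and for Ppargc1a it lay close to BF replicate 2 without crossing it. Ppargc1a fell by 1.60 ± 0.34 (adjusted p = 0.0032, and 0.052 with the 6 arrays alone), and its 5 probe sets, at -1.87 to -1.22, all passed. Ppargc1b fell by 1.15 (adjusted p = 0.0009) and Esrra, the estrogen-related receptor that works with both coactivators, by 0.95 (adjusted p = 4.7e-05). Of 24 regulators 7 fell and 3 rose, and 7 fell whichever array was left out. Among those that rose were Ppard, at 0.57 (adjusted p = 0.0032), and Prkag2, a regulatory subunit of the AMP-activated kinase, at 1.15 (adjusted p = 0.007, and 0.071 with 6 arrays). The other was Pparg, the fat cell receptor, at 0.66 (named after its value was seen).

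Tfrc, the transferrin receptor that brings iron into the cell, was at 9.49, 9.18 and 9.59 in BF and at 10.94, 11.02 and 11.86 in BG, without overlap, and fell by 1.86 ± 0.27 (adjusted p = 0.00024). Dimmer probe sets of Tfrc, at -0.70 and -0.33, did not pass (adjusted p = 0.15 and 0.13 from limma). Of 18 genes of iron uptake, heme synthesis and myoglobin 4 fell and 1 rose, Heph, a ferroxidase of iron export, at 0.88 (2 rose without BF replicate 2). Of those that fell, Tfrc and Alad (-0.66), an enzyme of heme synthesis, passed without any single array, while myoglobin (Mb, -0.30) and Aco1 (-0.76) did not, so that 2 fell without BF replicate 1, BG replicate 2 or BG replicate 3.

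Heat shock genes rose in some BF arrays far more than in others. Heat shock proteins refold or hold damaged proteins, and many are switched on by heat shock factors that bind repeats of the letters GAA and their reverse TTC upstream of the gene. Dnajb1, the co-chaperone that starts the cycle of heat shock protein 70, was at 11.53, 12.40 and 8.23 in BF, against 7.67, 7.44 and 7.75 in BG. BF replicates 1 and 2 were far above BG and BF replicate 3 only slightly, and the rise was 3.10 ± 0.63 (adjusted p = 0.0024, and 0.054 with the 6 arrays alone). Hspb1, a small heat shock protein that protects actin filaments, was at 14.27, 14.53 and 13.81 in BF and at 13.00, 12.82 and 12.76 in BG, so that all 3 BF arrays were clearly higher. It rose by 1.34 ± 0.21 (adjusted p = 0.0004), and Hspb8, a small heat shock protein of chaperone-assisted autophagy, by 1.16 ± 0.21 (adjusted p = 0.0013). Hspa1b, an inducible heat shock protein 70, was at 13.08, 13.42 and 11.33 in BF and at 11.67, 11.18 and 11.02 in BG. BF replicate 3 lay inside the BG range, and the difference of 1.32 ± 0.80 did not pass (adjusted p = 0.25).

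Of 29 heat shock proteins and co-chaperones 7 rose and 2 fell, with a median of 0.23. Without BF replicate 2 there were 4 that rose and without BF replicate 3 there were 15. The members that fell were Hspa9, the mitochondrial heat shock protein 70, at -0.60 (adjusted p = 0.0029), and Fkbp4, a co-chaperone of steroid receptors, at -0.37 (adjusted p = 0.025, named after its value was seen), and 1 fell without BF replicate 1, BF replicate 2, BG replicate 1 or BG replicate 2.

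The upstream sequences of 3 members are shown to set the element beside the response: 2 genes that rose and 1, Hsph1, that did not pass (0.15, adjusted p = 0.73). They are RefSeq sequences of build GRCm38.p6 read on the gene's strand, with the pair of a GAA and a TTC unit, in either order and 2 free bases apart, in capitals. The stretch of Hspb1 is chr5:135887787-135887844 on the plus strand, that of Dnaja1 chr4:40722329-40722366 on the plus strand and that of Hsph1 chr5:149636347-149636384 on the minus strand. Counted from the annotated start site, they begin at base -132 for Hspb1, -139 for Dnaja1 and -48 for Hsph1.
Hspb1: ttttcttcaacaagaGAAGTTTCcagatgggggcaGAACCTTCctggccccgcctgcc
Dnaja1: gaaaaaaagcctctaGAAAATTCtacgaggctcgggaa
Hsph1: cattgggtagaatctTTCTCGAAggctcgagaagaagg
In the stretches shown Hspb1 carries the pair at 2 places, and Dnaja1 and Hsph1 at 1 place each. Over the whole promoter window, which runs past the start site, Hsph1 carries it at 3 places. A promoter window (250 bases before and 50 after the start site) was available for 24 of the 29 members. Of the 24, 14 held at least 1 such pair on either strand in any of their promoters, where 17.0% of all 27025 genes did. By outcome these were 4 of 7 that rose (Dnaja1, Hspb1, Hspb3 and Hspb8), 1 of 1 that fell (Fkbp4) and 9 of 16 that did not pass. The stricter form with 3 units was held by 4 members, Chordc1, Hspd1, Hspe1 and Hsph1, none of which passed, and by 0.662% of all genes. Dnaja1 itself rose by 1.27 (adjusted p = 0.03) and missed the threshold without BF replicate 1, BF replicate 2, BG replicate 2 or BG replicate 3, at adjusted p of 0.067 to 0.14.

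Immediate early genes, which answer within minutes to growth factors, stress or mechanical stimuli, showed the same order of the BF arrays. Fos, a part of the transcription factor AP-1, was at 11.01, 11.78 and 9.46 in BF and at 9.24, 7.73 and 8.07 in BG. Egr1 was at 11.52, 12.19 and 8.56 in BF, against 9.16, 7.72 and 7.96 in BG. For Egr1 BF replicate 3 fell within the BG range, while for Fos all BF arrays were above BG. Fos rose by 2.41 ± 0.50 (adjusted p = 0.0028), Egr1 by 2.48 ± 0.61 (adjusted p = 0.0088, and 0.085 with 6 arrays) and Myc, a driver of growth, by 2.23 ± 0.35 (adjusted p = 0.00039). Of 30 immediate early genes 15 rose and 0 fell (1 was lower at an unadjusted p under 0.05, and unmoderated contrasts gave 12 and 0), with a median of 0.76. BF replicate 2 was the highest BF array in 13 of the 15 and BF replicate 3 the lowest in 13. Without BF replicate 2 there were 10 that rose and 1 that fell, and without BF replicate 3 there were 19 that rose. Atf3, a stress-induced transcription factor, was at 12.68, 13.21 and 11.49 in BF and at 10.39, 8.75 and 8.81 in BG. It rose by 3.14 ± 0.89 (adjusted p = 0.018) but missed the threshold without BF replicate 1, BF replicate 2, BG replicate 2 or BG replicate 3 (adjusted p of 0.056 to 0.069). Dusp10, a phosphatase that ends stress kinase signals, rose by 2.25 ± 0.33 (adjusted p = 0.00023), and Hbegf, a ligand of the epidermal growth factor receptor, was at 11.47, 12.36 and 10.59 in BF, against 9.36, 7.82 and 8.50 in BG, a rise of 2.91 ± 0.48 (adjusted p = 0.00059).

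Chemokines that attract monocytes rose together. Ccl12 was at 6.89, 7.85 and 4.69 in BF and at 3.75, 3.90 and 3.73 in BG, all BF arrays higher and BF replicate 3 the least so, with a rise of 2.68 ± 0.47 (adjusted p = 0.00088). Ccl2 was at 7.83, 9.28 and 5.99 in BF, against 5.65, 5.27 and 5.10 in BG, and rose by 2.36 ± 0.48 (adjusted p = 0.0027, and 0.054 with 6 arrays). Ccl7 rose by 1.48 and Cxcl13, which attracts B cells, by 1.15. Of 37 chemokines, cytokines and receptors 10 rose and 1 fell, with a median of 0.31. The one that fell, named after its value was seen, was Il15, a cytokine released by muscle, at -0.67. Without BF replicate 2 there were 7 that rose, and 0 fell without BF replicate 1, BG replicate 2 or BG replicate 3 and 2 without BF replicate 3.

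Acute phase genes, best known from the liver, rose in 10 of 18 members, and 1 fell (7 and 2 without BF replicate 2). Orm1, orosomucoid, was at 6.92, 7.34 and 7.46 in BF and at 4.63, 4.07 and 5.56 in BG, a rise of 2.48 ± 0.36 (adjusted p = 0.00024) with the 3 BF arrays close together. Hp, haptoglobin, rose by 2.41 (adjusted p = 0.0015) and Lcn2, an iron-sequestering lipocalin, by 2.07 (adjusted p = 0.0043). Of the CCAAT enhancer binding proteins of this response, Cebpd rose by 1.30 and Cebpb fell by 0.95 (adjusted p = 0.0034 and 0.0072).

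The unfolded protein response list, chaperones and enzymes of the endoplasmic reticulum, leaned the other way against BG, with 6 of 25 lower and 2 higher and a median of -0.39. The mean over the list overlapped between the groups, at 8.96, 9.17 and 8.50 in BF and 9.53, 8.90 and 9.22 in BG. Calr, calreticulin, fell by 0.76 (adjusted p = 0.00053) and Canx, calnexin, by 0.67, both calcium-binding chaperones of glycoproteins. Those that rose were Edem1, which sends misfolded glycoproteins to degradation, at 1.09, and the stress transcription factor Atf4, at 0.59. Without BG replicate 2, 10 fell.

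**Figure D4:**
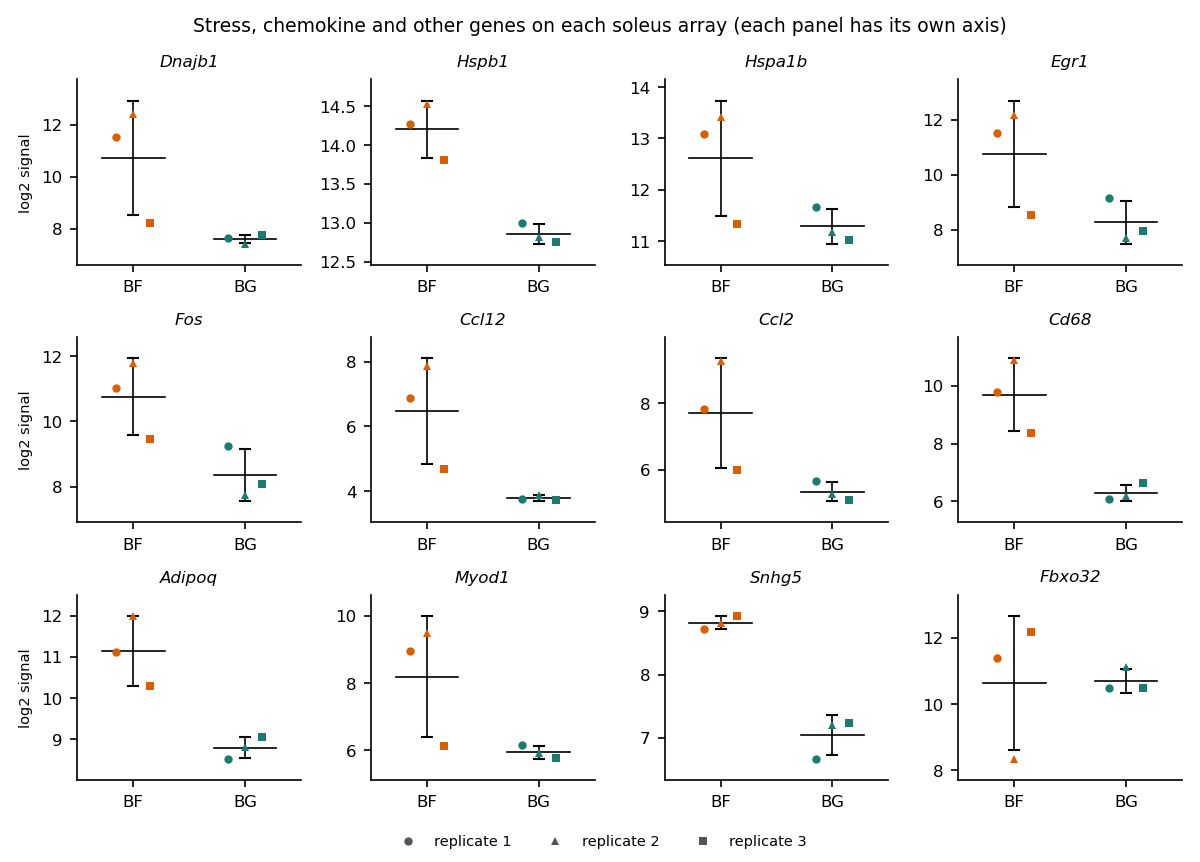
Log2 signal (vertical axis) of 12 genes in BF soleus (left) and BG soleus (right) of each panel, 1 marker for each array (circle, triangle and square are replicates 1, 2 and 3), with the mean and SD. BF replicate 2 (triangle) is the highest BF array and BF replicate 3 (square) the lowest for Dnajb1, Hspb1, Egr1, Fos, Ccl12, Ccl2, Cd68, Adipoq and Myod1, whereas Snhg5 is even within BF and Fbxo32 is low in BF replicate 2.

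Marker genes of other cell types were read beside these results, since a muscle holds vessels, nerve, fat and immune cells. In whole muscle, fewer cells of a type and less RNA in each cell cannot be told apart. Of 19 macrophage markers 1 rose and 0 fell (3 were higher and 0 lower at an unadjusted p under 0.05, and unmoderated contrasts gave 1 and 0). The count that rose was 4 with the 9 soleus arrays alone or with the replicate number as a block, and 2 without BF replicate 3 or with quality weights. The one that rose over 18 arrays was Cd68, a lysosomal protein of phagocytes, at 9.80, 10.90 and 8.38 in BF, against 6.09, 6.17 and 6.62 in BG, a rise of 3.40 ± 0.39 (adjusted p = 3.6e-05, 10.6-fold). The mean signal over the 19 markers was 6.78, 7.40 and 6.85 in BF and 6.69, 6.53 and 6.52 in BG, and the defining marker Lyz2 differed by 0.61 (adjusted p = 0.19). Their part in the rise of the chemokines was not tested.

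Fat cell genes were higher in BF. Adipoq, the fat hormone adiponectin, was at 11.11, 12 and 10.30 in BF and at 8.53, 8.81 and 9.05 in BG, without overlap and highest in BF replicate 2. It rose by 2.34 ± 0.42 (adjusted p = 0.0012), Retn, the hormone resistin, by 1.89 (adjusted p = 0.00058) and Cebpa, a transcription factor of fat cells, by 1.32. Of 21 adipocyte markers 9 rose and 1 fell, 6 rose without BF replicate 2 or BG replicate 2, 0 fell without BF replicate 1 or BG replicate 2 and 2 without BG replicate 1, and the mean over the list was 8.40, 8.91 and 8.16 in BF, against 7.67, 7.78 and 7.88 in BG. BF replicate 2 was the highest and BF replicate 3 the lowest BF array in all 9. Fabp4, the brightest fat cell marker apart from Car3, differed by -0.17 (adjusted p = 0.49).

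Markers of the myelin-forming Schwann cells rose in 6 of 8 members, and 0 fell (0 lower at an unadjusted p under 0.05, and unmoderated contrasts gave 4 and 0). Ncmap, a myelin membrane protein, was at 8.22, 8.98 and 8.47 in BF and at 6.10, 7.70 and 7.28 in BG, a rise of 1.53 ± 0.37 (adjusted p = 0.0074), and Sox10, the defining factor of these cells, rose by 0.75 (adjusted p = 0.0023). The mean over the list was 8.38, 8.88 and 8.51 in BF and 7.02, 8.10 and 7.82 in BG, where BG replicate 1 was low. Without BG replicate 1, or without BF replicate 2, the count was 4.

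Of 13 endothelial markers 5 fell and 1 rose, with a median of -0.40. Kdr, the main receptor of vascular endothelial growth factor, was at 7.36, 7.52 and 6.97 in BF, against 8.37, 8.25 and 8.06 in BG, and fell by 0.94 ± 0.18 (adjusted p = 0.0018). Flt1, its sister receptor, fell by 0.83 at its brightest probe set (adjusted p = 0.00054). Its other probe sets, at -0.31 and 0.01, did not pass (adjusted p = 0.19 and 0.98). Vegfb, a member of the vascular endothelial growth factor family, fell by 1.09 (adjusted p = 0.00033). The marker that rose was Cldn5, a tight junction protein, at 0.58. In the angiogenic and vasoactive list, which holds the receptors too, 8 of 28 fell and 4 rose (2 without BG replicate 2). F2r, the thrombin receptor, was among those that fell, by 1.12 (adjusted p = 0.0034).

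Structural genes of connective tissue were lower. Of 31 collagens and interstitial matrix genes 9 fell and 0 rose (1 was higher at an unadjusted p under 0.05, and unmoderated contrasts gave 5 and 0), with a median of -0.28. Col1a1, the main chain of type I collagen, was at 6.71, 6.74 and 7.45 in BF and at 9.21, 8.35 and 8.97 in BG, a fall of 1.88 ± 0.50 (adjusted p = 0.013). Postn, periostin, which rises when matrix is laid down, was at 7.63, 8.33 and 7.53 in BF, against 9.82, 9.72 and 10.12 in BG, and fell by 2.06 ± 0.47 (adjusted p = 0.0056). Fn1, fibronectin, fell by 0.96 and Bgn, biglycan, by 1.01. The count was 5 without BF replicate 1, BG replicate 1, BG replicate 2 or BG replicate 3, and 5 with the arrays quantile normalized again.

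Tendon and cartilage markers fell in 7 of 15 members and rose in 0 (0 higher at an unadjusted p under 0.05, and unmoderated contrasts gave 5 and 0), with a median of -0.97. Chad, a cartilage and tendon matrix protein, was at 5.63, 5.53 and 6.89 in BF and at 9.05, 8.10 and 7.74 in BG, a fall of 2.28 ± 0.55 (adjusted p = 0.0074). Aspn, asporin, fell by 1.87 ± 0.37 (adjusted p = 0.0022). Tnmd, tenomodulin, a marker of tendon cells, was at 6.61, 7.25 and 9.17 in BF and at 10.19, 9.57 and 9.76 in BG. The mean over the list was 6.45, 6.89 and 7.22 in BF, against 7.98, 7.52 and 7.59 in BG. Its part in the fall of the collagens was not tested, and the count was 3 without BF replicate 1 and 4 without BG replicate 1 (1 rose without BF replicate 3).

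In the Wnt pathway, which steers cell fate and growth, the receptor Fzd9 fell and the ligand Wnt4 rose. Fzd9 was at 6.76, 7.06 and 6.51 in BF and at 9.73, 9.40 and 9.47 in BG, and its fall of 2.76 ± 0.14 (6.75-fold) had the lowest adjusted p of the genes named here, 9.2e-09. Wnt4 was at 7.51, 6.76 and 7.49 in BF, against 5.39, 5.40 and 4.84 in BG, and rose by 2.05 ± 0.22 (adjusted p = 2.1e-05). Fzd5 rose by 1.44 and Sfrp5, a secreted inhibitor, by 0.76. Of 34 receptors, ligands and inhibitors of the pathway 4 rose and 2 fell, which are 11.8% and 5.88%.

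Of 15 developmental myosins and myogenic factors 3 rose and 1 fell. The 3 were Myod1, Myog and Myf6, transcription factors that switch on muscle genes, while Myf5, another such factor, differed by -0.18 (adjusted p = 0.58, named after its value was seen). The one that fell was the embryonic myosin Myh3 (-2.41 ± 0.32, adjusted p = 0.00012). Myod1 was at 8.95, 9.49 and 6.13 in BF and at 6.16, 5.92 and 5.78 in BG, so that BF replicate 3 lay within the BG range, and it rose by 2.24 ± 0.54 (adjusted p = 0.0077, and 0.078 with 6 arrays). Myog rose by 1.81 ± 0.27 (adjusted p = 0.00026) and Myf6 by 1.37 ± 0.20 (adjusted p = 0.00022), both without overlap. At the neuromuscular junction, Musk, the kinase that gathers acetylcholine receptors, was at 9.26, 10.19 and 8.31 in BF, against 7.86, 7.45 and 7.48 in BG, a rise of 1.66 ± 0.40 (adjusted p = 0.0076). Chrna1, a subunit of that receptor, fell by 0.68 (adjusted p = 0.002), and Lrp4, the agrin receptor beside Musk, by 0.89 (adjusted p = 0.0013). Of 19 genes of the junction and the response to denervation 5 rose and 3 fell. The others that rose were Gdnf (2.25), Gadd45a (0.70), and, named after their values were seen, Runx1 (0.66) and Chrnb1 (0.56). The count was 3 without BF replicate 1 or BG replicate 3.

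Proteins that anchor the contractile lattice rose in 8 of 37 members and fell in 3. Flnc, filamin C, a crosslinker of actin at the Z-disc, was at 12.50, 13.21 and 12.03 in BF and at 11.56, 11.42 and 11.31 in BG, a rise of 1.15 ± 0.27 (adjusted p = 0.0064). Fhl3, a LIM protein of the Z-disc, rose by 1.07 and the keratin Krt19 by 1.22. The 3 that fell, named after their values were seen, were Sgcb (-0.51), Dag1 (-0.36) and Myot (-0.33), and 1 fell without BG replicate 2 or BG replicate 3. Mybph, a myosin binding protein, was at 9.30, 10.36 and 7.89 in BF, against 5.77, 5.59 and 5.70 in BG, a rise of 3.50 ± 0.77 (adjusted p = 0.0042, 11.3-fold).

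Of 28 atrophy ligases, FoxO factors and autophagy genes 1 rose and 7 fell, with a median of -0.08 (4 fell with the arrays quantile normalized again). The ligase Fbxo32 (atrogin-1) was at 11.38, 8.36 and 12.18 in BF and at 10.48, 11.11 and 10.49 in BG. BF replicate 2 was the lowest of the 6 arrays while the other BF arrays were the highest, and the difference was -0.05 (adjusted p = 0.96) with BF replicate 2 and 1.09 (adjusted p = 0.0038) without it. Becn1, which starts autophagy, fell by 1.03 (adjusted p = 0.0056), the muscle calpain Capn3 by 0.76 and Bnip3, a mitophagy receptor, by 0.57. The one that rose, Gabarapl2 (0.56), a ubiquitin-like autophagy protein, missed the threshold when any 1 array other than BF replicate 3 was left out. Among 37 proteasome subunits 2 rose and 4 fell, and 0 fell without BG replicate 2 or BG replicate 3 and 1 without BF replicate 2, while 0 rose without BF replicate 2 or BG replicate 3 and 1 without BF replicate 1 or BG replicate 1 (the subunits that fell were Psma5, Psmc1, Psmc4 and Psmc5, at -0.85 to -0.39).

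Of 30 genes of insulin, IGF and mTOR signalling 3 rose and 2 fell, both lower shares than over all genes, of which 11.1% rose and 12.3% fell. Without BF replicate 2 there were 6 that rose and 1 that fell, and without BG replicate 3 there were 4 that fell. Eif4ebp1, which holds back protein synthesis, was at 10.48, 10.35 and 10.80 in BF and at 9.38, 9.57 and 9.31 in BG, a rise of 1.13 ± 0.17 (adjusted p = 0.00037). Sesn1, a sestrin that dampens mTOR signalling, rose by 1.08 ± 0.14 at its brightest probe set (adjusted p = 0.00011 from limma). Its other probe sets, at 0.54 and 0.06, did not pass (adjusted p = 0.075 and 0.91). Tsc2, another brake on mTOR, fell by 0.55 (adjusted p = 0.006). Of 24 p53 targets and growth arrest genes 8 rose and 6 fell. Cdkn1c and Cdkn2c, inhibitors of cell division, rose by 1.17 and 1.18 (adjusted p = 0.00013 for both). Cdkn1a (p21) was at 10.75, 11.28 and 11.00 in BF and at 10.34, 8.67 and 10.11 in BG, a rise of 1.30 (adjusted p = 0.012) that was 0.78 (adjusted p = 0.056) without BG replicate 2. In this list 5 rose without BG replicate 2, and 2 fell without BF replicate 1, BF replicate 2 or BG replicate 2 and 1 without BG replicate 3.

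A small group of long noncoding RNAs that host small nucleolar RNAs moved with little spread. Snhg5 was at 8.72, 8.81 and 8.93 in BF and at 6.67, 7.20 and 7.24 in BG, a rise of 1.78 ± 0.14 (adjusted p = 7.6e-07). Of 7 host genes 5 rose and 0 fell (1 was lower at an unadjusted p under 0.05, and unmoderated contrasts gave 5 and 0), with Snhg1 at 1.57, Snhg8 at 1.14, Gas5 at 0.91 and Snhg6 at 0.61. At least 5 rose whichever array was left out, and the order of the BF arrays was not that of the stress genes, with BF replicate 1 the lowest in all 5.

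Amino acid metabolism held a further rise. Of 28 genes of amino acid transport and of creatine and polyamine synthesis 14 rose and 5 fell, with a median of 0.77. Gpt2, the mitochondrial alanine transaminase, was at 10.41, 9.18 and 10.48 in BF and at 7.02, 7.94 and 7.26 in BG, a rise of 2.62 ± 0.32 (adjusted p = 4.7e-05). Slc1a5, a glutamine carrier, rose by 1.18 and Glul, which makes glutamine, by 0.82. Those that fell were Ckmt2, the mitochondrial creatine kinase (-0.93, adjusted p = 0.00014), and, named after their values were seen, Got1 (-0.55), Shmt2 (-0.53), Slc6a8 (-0.45), the creatine transporter, and Got2 (-0.40). Without BG replicate 3 there were 9 that rose, without BG replicate 1 there were 2 that fell, and without BF replicate 2, BF replicate 3, BG replicate 2 or BG replicate 3 there were 3.

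Clock genes were read because tissue taken at another hour of the day shows other levels of them. Of 19 clock genes 2 rose and 1 fell, which are 10.5% and 5.26%. The count that rose was 4 without BG replicate 1, 1 without BF replicate 1, BF replicate 3 or BG replicate 2, and 0 without BG replicate 3. The count that fell was 2 without BF replicate 3 or BG replicate 1 and 0 without BG replicate 2 or BG replicate 3. Dbp, a strongly cycling output gene, was at 6.30, 5.82 and 6.21 in BF and at 6.58, 9.26 and 8.33 in BG. It was low and even in BF and scattered in BG, and its fall of 1.94 (adjusted p = 0.013) did not pass without BG replicate 2 (0.076) or BG replicate 3 (0.052). Arntl, which encodes the core factor BMAL1, was at 8.41, 8.87 and 8.20 in BF, against 8.81, 7.22 and 7.47 in BG, and its difference of 0.66 did not pass (adjusted p = 0.16) but was 1.15 (adjusted p = 0.0091) without BG replicate 1. Against FC, at 6.18, 5.57 and 6.06, it was higher by 2.56 (adjusted p = 6.1e-05). Per1 differed from BG by 0.54 (adjusted p = 0.22). The part of sampling time in the results was not tested. Of 23 glucocorticoid-responsive genes 5 rose and 1 fell (2 without BF replicate 3). Fkbp5, a co-chaperone of the glucocorticoid receptor, was at 10.92, 9.97 and 11.09 in BF and at 9.34, 9.19 and 9.77 in BG, a rise of 1.23 ± 0.27 (adjusted p = 0.0039).

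The other ground group gives a further level for these genes, with the same BF arrays in both comparisons. Against FC, 1118 genes rose (9.02%) and 1987 fell (16.0%) in BF soleus. In the respiratory chain 21 of 66 genes fell against FC and 28 against BG. In fatty acid uptake and oxidation the counts were 17 against FC and 19 against BG, of 26. Matrix genes fell in 18 of 31 against FC and in 9 against BG. Heat shock genes rose in 12 of 29 against FC and in 7 against BG, immediate early genes in 20 of 30 against FC and 15 against BG, and proteasome subunits in 9 of 37 against FC and 2 against BG. Schwann cell markers rose in 1 of 8 against FC and in 6 against BG. In the unfolded protein response list of 25 genes 5 rose and 3 fell against FC, while 2 rose and 6 fell against BG. For single genes, Fzd9 differed by -2.77 from FC and by -2.76 from BG, Actn3 by 3.63 and 4.43, Pln by -1.69 and -2.44, and Ppargc1a by -0.86 (adjusted p = 0.075) from FC and by -1.60 from BG.

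The same contrast in EDL, measured on other arrays from the same groups of mice, gives the change of the same genes in a fast muscle. Of 51 genes chosen for the size of their change or as key genes, 41 passed the test in soleus and 0 in EDL (limma, 11 at an unadjusted p under 0.05). The difference between the muscles itself passed for 26 of the 41, where over all genes 4.21% had a higher and 5.04% a lower change in soleus. Most of these genes were chosen for the size of their change in soleus, which favours such a difference, so nothing is read from the count. For 13 of the 26 the change was higher in soleus, led by Actn3, with 4.43 in soleus and -0.01 in EDL, Mybph, with 3.50 in soleus and -0.93 in EDL, and Myh4, with 4.26 in soleus and 0.08 in EDL. Actn3 and Myh4 were near the highest signal of 14.5 in EDL, where a rise has little room on the scale, with means in EDL of 13.78 in BF and 13.79 in BG for Actn3 and of 14.15 in BF and 14.07 in BG for Myh4. For 13 it was lower, among them Pln (-2.44 in soleus, -0.04 in EDL), Fzd9 (-2.76 in soleus, -0.48 in EDL) and Ppara (-2.06 in soleus, -0.63 in EDL). A gene that is already low in EDL has less room to fall there, and the part of this was not tested. Pln had a mean of 6.77 over all arrays of both muscles, against 6.13 in BF soleus and 8.57 in BG soleus. Lgi1, another of the 13, had a mean of 5.42 over all arrays, against 5.25 in BF soleus and 8.06 in BG soleus. The means of Fzd9 and Ppara over all arrays were higher, at 7.8 and 8.71.

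**Figure D5:**
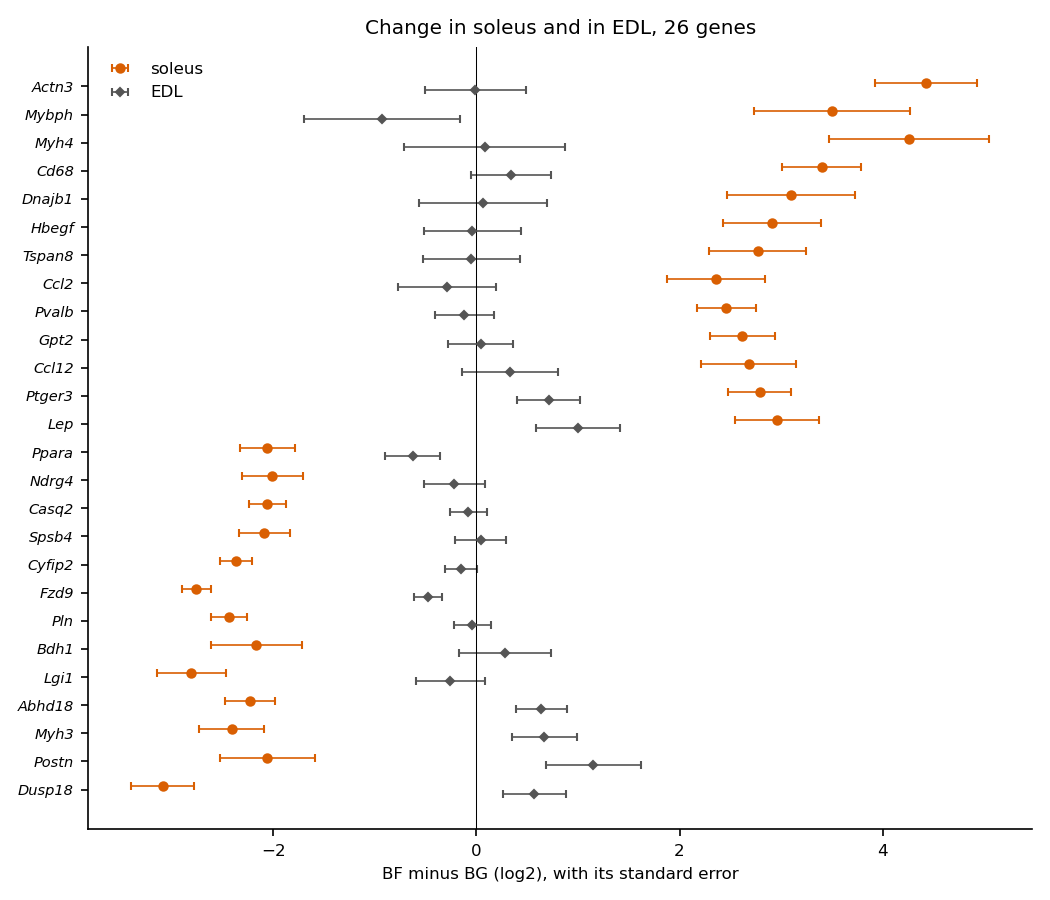
Log2 difference between BF and BG (horizontal axis, bars are SE) in soleus (circles) and EDL (diamonds) for the 26 genes (rows) whose change differed between the muscles. The soleus values run from -3.09 for Dusp18 to 4.43 for Actn3, and the EDL values lie between -0.93 and 1.15.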

How the data were processed

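RNA of 3 soleus muscles from each of BF, BG and FC was measured on Affymetrix mouse expression arrays, with EDL in the same way, 18 arrays in all. The authors normalized the arrays together by RMA in Partek Genomics Suite, and the deposited values are log2 signals, used here as given. RMA brings arrays close to 1 distribution, yet the interquartile ranges of the deposited values ran from 3.184 to 3.571 over the 18 arrays. Array signals are known to be compressed near both ends of their range. Depth does not apply to arrays, and the number of arrays limits the precision: an exact two-sided permutation of 3 against 3 cannot give a p below 0.1. Sample labels do not say which arrays of soleus and EDL share a mouse, and p-values measure the spread between these muscles.

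Probe sets were named by the platform annotation: of 22690, 64 were controls and were left out, 20380 named 1 gene, 691 several and 1555 none, and 20351 were matched to a gene record, giving 12393 genes. A linear model with 6 group means was fitted to 22626 probe sets over 18 arrays with limma 3.58.1 in R 4.3.3, with variances moderated by empirical Bayes (residual df 12, prior df 5.1), and p was adjusted over all probe sets by Benjamini and Hochberg. Gene values come from its brightest probe set on average. A gene was called at an adjusted p under 0.05 and over 2-fold by any probe set that names it alone, and for list members any fold at that p counted. Replicate numbers did not pair the arrays. The fit was tested on simulated data first. Tables and figures were made in Python 3.11.15 with numpy 2.4.6, pandas 2.3.3 and matplotlib 3.10.9.

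The 47 gene lists, their members and the genes named were chosen with earlier results of these data known. Open to naming were, of the called genes without overlap, the 15 highest and 15 lowest, and a list of key genes. So were, from each list, up to 6 members past the threshold with the largest change and the 2 with the highest signal. Only some of these genes are named in the text. Genes outside this rule are marked as named after their values were seen. Alternatives were quality weights, median centring, quantile normalization, mean signal limits of 6 and 8, unmoderated contrasts, 9 or 6 arrays, a replicate block and each array left out. Sequences are from RefSeq (GRCm38.p6). The quantitative PCR and tissue sections of the study were not analysed here.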

Additional observations from a re-analysis of the deposited data

Results flagged for a closer look

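For 26 genes the change between BF and BG differed between soleus and EDL by the test of that difference (interaction term in limma over 18 arrays, 3 per group), with adjusted p from 1.8e-05 for Fzd9 to 0.044 for Lep, and with no EDL change past the threshold. The values that follow are the soleus change minus the EDL change on the log2 scale.

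Of genes higher in BF soleus, the difference between the muscles was 4.44 ± 0.71 (SE) for Actn3, 4.43 ± 1.08 for Mybph and 4.18 ± 1.12 for Myh4. It was 3.06 for Cd68, 3.04 for Dnajb1, 2.95 for Hbegf, 2.82 for Tspan8 and 2.65 for Ccl2. It was 2.58 for Pvalb, 2.57 for Gpt2, 2.35 for Ccl12, 2.08 for Ptger3 and 1.96 for Lep.

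Of genes lower in BF soleus, the difference was -3.66 ± 0.43 for Dusp18, -3.21 ± 0.67 for Postn and -3.08 ± 0.46 for Myh3. It was -2.87 for Abhd18, -2.55 for Lgi1, -2.45 for Bdh1, -2.41 for Pln and -2.27 for Fzd9. It was -2.22 for Cyfip2, -2.13 for Spsb4, -1.98 for Casq2, -1.79 for Ndrg4 and -1.43 for Ppara. How much room these genes had to fall in EDL was not tested. In 12 of the 26 genes the muscles lay on opposite sides of 0. The 3 of these farthest from 0 in EDL were Postn, Myh3 and Mybph, with Postn at -2.06 in soleus and 1.15 in EDL, Myh3 at -2.41 in soleus and 0.67 in EDL, and Mybph at 3.50 in soleus and -0.93 in EDL, none of the EDL values past the threshold (adjusted p of 0.34, 0.42 and 0.69).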

How the results depend on the processing

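In place of 575 called genes there were 434 when 1 probe set stood for each gene (191 down), 346 (146 up, 343 of them among the 575) with a mean signal of at least 8, and between 524 and 753 when 1 array was left out (up 240 to 411, down 262 to 342). Of the 575, between 419 (72.9%, without BF replicate 2) and 521 remained when 1 array was left out. At any fold, 2893 genes changed, against 4361 with quality weights (2326 rose), 1811 with the 6 BF and BG arrays alone (768 rose), 1534 with a signal of at least 8 (437 rose) and 1800 to 2895 without 1 array (rose 716 to 1336, fell 1084 to 1559). Median centring gave 1036 that rose and 1815 that fell, and the other counts of calls stayed within 1.5 times the main ones.

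The replicate numbers did not pair the arrays (correlations of same-numbered deviations of 0.0247, -0.0631 and 0.105), and with the replicate number as a block 582 genes were called, 2996 at any fold.

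Fbxo32 was 1.09 against BG and 0.76 against FC without BF replicate 2 (adjusted p = 0.0038 and 0.024), and over all single arrays left out it ran from -0.82 to 1.09 against BG and from -1.14 to 0.76 against FC. List medians near 0 changed sign. Fibre-type transcription factors gave -0.07 and -0.03 with signals of at least 6 and 8 and from -0.01 (without BF replicate 1) to 0.13 without 1 array, and sodium pump and ion channels -0.05 and -0.07 with at least 6 and 8. Carbonic anhydrases gave -0.23 and -0.10, and with at least 8 chemokines gave -0.20 and the Wnt list -0.02. The cause of these shifts was not tested. Over 94 counts of list members that rose or fell, between 13 and 24 moved by over 1.5 times when 1 array was left out, 32 with quality weights or the 6 arrays alone, 18 with quantile normalization and 10 with the replicate block, most of them counts under 5. Few genes with both the BF and the BG mean under 4 were called (0.0794%).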

Other observations

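Antioxidant genes changed in both directions, with 5 of 29 higher and 8 lower in BF soleus. Gsta4, a glutathione transferase that clears lipid aldehydes, was at 8.26, 8.49 and 8.16 in BF and at 9.15, 9.05 and 9.50 in BG and fell by 0.93 ± 0.16 (adjusted p = 0.00071 from limma). Gpx8 and Nqo1 fell by 1.12 and 1.09. Those that rose, named in part after their values were seen, were Mt2 (1.27), Gpx3 (0.98), Gpx1 (0.86), Gstm1 (0.69) and Sod1 (0.30), and 3 rose without BF replicate 1.

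Of 17 dual-specificity phosphatases 4 rose and 2 fell. Dusp13, a phosphatase of muscle and testis, was at 10.53, 10.99 and 9.98 in BF and at 8.90, 8.96 and 8.71 in BG, a rise of 1.64 ± 0.21 (adjusted p = 9.2e-05), and Dusp2 rose by 1.33. Of 22 transcription factors of fibre type 4 rose, Nfatc4 (0.65), Eya4 (0.57), Ppard (0.57) and Bhlhe41 (0.42), and 0 fell (2 lower at an unadjusted p under 0.05, 0 with unmoderated contrasts, 1 without BF replicate 3 or BG replicate 1). Of 14 carbonic anhydrases 3 rose and 1 fell, Car8 by 1.04 (adjusted p = 0.001), and 1 rose without BF replicate 1 or BG replicate 1. Of 28 cell cycle genes 2 rose and 2 fell, among them Ung, a DNA repair glycosylase, which was at 5.66, 5.99 and 5.71 in BF and at 7.50, 7.09 and 7.73 in BG and fell by 1.66 ± 0.20 (adjusted p = 4.4e-05). The 2 that rose, Mcm2 and Cdc20, did not pass without BF replicate 1 or any 1 BG array, and 1 fell without BG replicate 3.

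Nnat, neuronatin, a small protein of membranes, was at 8.91, 9.92 and 6.71 in BF and at 5.38, 6.46 and 5.75 in BG, a rise of 2.65 ± 0.57 (adjusted p = 0.0039). Tspan8, a tetraspanin, was at 8.30, 6.34 and 9.28 in BF and at 4.77, 5.99 and 4.85 in BG, the order of the BF arrays turned round from that of the stress genes, and it rose by 2.77 ± 0.48 (adjusted p = 0.00086). Spsb4, an adaptor of ubiquitin ligases, fell by 2.09 ± 0.25 (adjusted p = 4.4e-05).

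The marker lists of the remaining cell types were short, at 4 to 10 genes. Over all genes 11.1% rose and 12.3% fell, so a count of 1 in such a list shows neither a change nor its absence. In smooth muscle and pericytes 1 of 9 fell, Rgs5 at -0.44, and 0 rose (2 higher at an unadjusted p under 0.05, 0 with unmoderated contrasts, 2 without BF replicate 3). In neutrophils 1 of 10 rose, S100a8 at 1.07, which missed the threshold without BF replicate 1, BF replicate 2, BG replicate 2 or BG replicate 3, and in lymphocytes 1 of 9, Cd3d at 0.61, which missed it without BF replicate 1 or BG replicate 3. Of 9 satellite cell markers 1 fell, Chodl at -0.97, which missed the threshold when any 1 array other than BF replicate 3 was left out. Of 4 red blood cell markers 1 rose, Hba-a1 at 0.32, which missed it when any 1 array other than BF replicate 2 was left out, and 1 fell, Slc4a1 at -0.56, which missed it without BF replicate 1, BF replicate 2, BG replicate 1 or BG replicate 3. Another probe set of Slc4a1 went the other way, at 0.74 (adjusted p = 0.034 from limma), so no direction is read for this gene. Both genes were dim, with means in BF and BG of 4.70 and 4.38 for Hba-a1 and of 4.24 and 4.79 for Slc4a1. Of 9 epidermis markers 1 rose, Krt1 at 0.55, which missed it without BF replicate 1, BF replicate 2, BG replicate 1 or BG replicate 3. In that list 3 rose without BF replicate 3, 4 with quality weights and 5 with the 9 soleus arrays alone. Lor, an epidermal envelope protein, was at 6.57, 7.58 and 4.98 in BF, against 4.60, 5.26 and 4.25 in BG (adjusted p = 0.33, and 0.045 with the 9 soleus arrays alone). The mean over the 9 epidermis markers was 5.60, 6.0 and 4.79 in BF and 4.70, 4.83 and 4.50 in BG, and their part in other results was not tested.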
